A study of Canis lupus familiaris with 36 samples.

Results

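Tumours with disease state LBT were compared with tumours with disease state TZL, T-zone lymphoma, in dogs whose lymphomas were profiled on Affymetrix canine expression arrays. The groups were taken from the disease state label alone and held 4 LBT and 9 TZL dogs, 13 of the 35 dogs in the series. The series collected common histologic types of canine lymphoma, 36 arrays in all, and the labels call both compared groups T cell lymphomas. Each tumour was a primary sample that was dissociated mechanically and filtered, and total RNA from it was labelled as biotinylated cRNA, so each value is an average over all cells that passed the filter. The labels do not spell out LBT. All 4 LBT tumours were graded high and all 9 TZL tumours low, so the label and the grade cannot be told apart here. The LBT dogs were LBT 1, a female Labrador of age 5, LBT 2, a male Golden Retriever of age 3, and LBT 3 and LBT 4, female Golden Retrievers of age 6 and 10. The TZL dogs were 6 males and 3 females aged 7 to 11, of which TZL 2 was a Mastiff and the other 8 Golden Retrievers. The labels give no unit for age and name no treatment. Dogs of another high-grade T cell group, PTCL (peripheral T cell lymphoma), enter below only where LBT is set beside them. PTCL 1 was a female Boxer of age 8, PTCL 2 a male Golden Retriever of age 9, PTCL 3 a male Boxer of age 6 and PTCL 4 a female Bichon Frise of age 14. The sex-linked probe set of PTCL 3 opposed its sex label.

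T-zone lymphoma is an indolent lymphoma that grows in the T zones between the follicles of the node, and its tumour cells are known for lacking CD45, the leukocyte tyrosine phosphatase encoded by PTPRC. High-grade T cell lymphomas grow fast, and their cells can carry features of thymocytes, of activated T cells or of both. A node or mass sampled whole also holds B cells, plasma cells, macrophages, stroma and vessels, and in bulk samples fewer cells of a type and less RNA per cell cannot be told apart.

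Every tumour carried the transcript of CD3E, the CD3 epsilon chain that marks T cells. CD3E measured 11.83, 11.75, 11.52 and 12.07 in LBT dogs 1 to 4 and 11.25 to 12.24 (median 12.16) in the TZL dogs. The difference between the groups did not pass the test (log2 difference -0.17 ± 1.03 (SE), 1.13-fold, limma adjusted p = 0.917). No LBT or TZL dog had a sex-linked probe set that opposed its sex label. On the scale of the arrays as deposited, the median intensity lay between 5.604 and 6.132 in the 13 dogs, and 33.3 to 35.4% of probe sets reached a log2 intensity of 4, the threshold used for low values (an intensity of 16). The 3' probe set of the actin control was high (log2 13 or more) in 0 of 4 LBT and 3 of 9 TZL arrays, those of TZL 1, TZL 2 and TZL 7 (Fisher's exact test p = 0.497). Its mean was 11.25 ± 0.26 (SD, n = 4) against 12.13 ± 1.51 (SD, n = 9; two-sided exact permutation test p = 0.438). The LBT dogs were younger, at 6 ± 2.94 (SD, n = 4) against 9.22 ± 1.30 (SD, n = 9), which gave p = 0.021 in a two-sided exact permutation test and 0.147 after Benjamini-Hochberg adjustment over the 7 array and dog measures compared. The smallest p the design allows is 0.0014. Whether age, sex or array quality had a part in any result was not tested beyond the alternatives given in the closing section.

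Of 7500 genes tested in a limma model over the 34 dogs of 6 lymphoma groups, 2259 (30.1%) differed between LBT and TZL at an adjusted p under 0.05, which is what called means from here on. In LBT, 1332 genes (17.8%) were called higher and 927 (12.4%) lower. On log2 values as they stood, low ones included, 1575 of the called genes differed by at least 2-fold, 885 higher and 690 lower. Values below the threshold carry no order and were set to it to count genes whose groups did not overlap, and these are called floored values below. The 4 LBT dogs then lay above all 9 TZL dogs for 705 genes (9.4%) and below all of them for 368 (4.91%). At an unadjusted p under 0.05 the count was 3062. The median difference over all tested genes was 0.05 on the log2 scale, so a gene group is read below against that value and against these shares. Across the tested genes, the Pearson correlation between 2 LBT dogs was 0.893 to 0.928, between 2 TZL dogs 0.897 to 0.971, and between an LBT and a TZL dog 0.778 to 0.895; these are descriptions over genes of arrays processed together.

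The genes with the largest differences were bright in the LBT tumours and near or below the threshold in nearly all TZL tumours. GTSF1, a factor of the germline piRNA pathway, measured 10.99, 11.70, 10.87 and 11.28 in LBT dogs 1 to 4 and 2.11 to 2.93 (median 2.50) in the TZL dogs. All 4 LBT dogs stood above all 9 TZL dogs (log2 difference 8.72 ± 1.66 (SE), at least 148-fold, limma adjusted p = 1.83e-04). SMOC2, a secreted calcium-binding matrix protein, measured 10.40, 11.23, 11.81 and 10.61 in LBT dogs 1 to 4 and 1.98 to 2.54 (median 2.35) in the TZL dogs. Here too the groups did not overlap (log2 difference 8.71 ± 0.71 (SE), at least 129-fold, limma adjusted p = 2.12e-10). DPP4, the surface peptidase CD26, measured 14.23, 12.27, 11.12 and 8.97 in LBT dogs 1 to 4 and 3.47 to 5.37 (median 4.69) in the TZL dogs. LBT dogs differed widely among themselves, and the lowest LBT value was above the highest TZL value (log2 difference 7.14 ± 0.58 (SE), 131-fold with floored values, limma adjusted p = 2.12e-10). The other leading genes were AMPH, the endocytic protein amphiphysin (at least 61.7-fold higher), ANK3, the membrane anchor ankyrin G (at least 52.9-fold), KHDRBS3, an RNA-binding splicing factor (at least 61.3-fold), NSG1, a neuronal endosomal protein (at least 41.0-fold), PLAT, tissue plasminogen activator (at least 52.6-fold), AKAP12, an anchor of protein kinase A (at least 34.2-fold) and GPC4, a glypican (28.0-fold with floored values). A fold is given as at least when every dog of the lower group was below the threshold and every dog of the other reached it. The threshold is then used in place of the lower values. Other folds with floored values are not bounds where dogs of the brighter group were below the threshold. For GPC4 a single TZL dog, TZL 4, reached 5.46, and the other 8 lay between 1.98 and 2.75. AKAP12 ranged within LBT from 6.50 in LBT 2 to 10.46 in LBT 1. In PTCL 4, 9 of these 10 genes were below the threshold, DPP4 being the exception, while the other 3 PTCL dogs had all 10 above it except KHDRBS3 in PTCL 1.

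**Figure D1:**
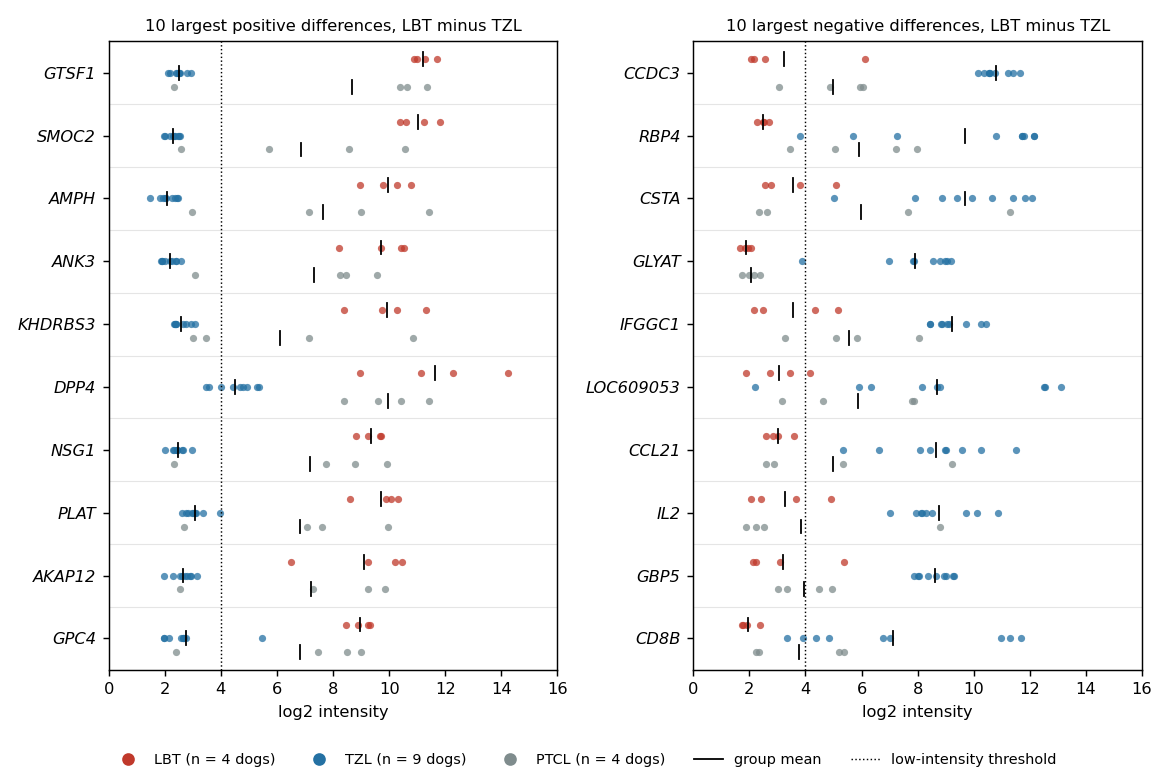
Log2 intensity (horizontal axes) of the 10 genes with the largest positive and the 10 with the largest negative log2 difference between LBT and TZL, 1 point per dog, for 4 LBT, 9 TZL and 4 PTCL dogs. Black bars are group means and the dotted line is the low-intensity threshold of log2 4; LBT and TZL do not overlap, except for CSTA and LOC609053 and for RBP4, GLYAT and CD8B, where all LBT dogs and at least 1 TZL dog are below the threshold.

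The genes lowest in LBT against TZL included a secreted coiled-coil protein, a retinol carrier, a cytokine and a chemokine. CCDC3, a secreted coiled-coil protein, measured 2.17, 2.55, 6.11 and 2.07 in LBT dogs 1 to 4 and 10.16 to 11.65 (median 10.57) in the TZL dogs. LBT 3 was the only LBT dog above the threshold and still stood below every TZL dog (log2 difference -7.57 ± 0.59 (SE), 77.2-fold with floored values, limma adjusted p = 1.51e-10). RBP4, which carries retinol, measured 2.27, 2.48, 2.70 and 2.52 in LBT dogs 1 to 4 and 3.80 to 12.14 (median 11.71) in the TZL dogs. No LBT dog reached the threshold, and neither did TZL 9, the lowest of a widely spread TZL group (log2 difference -7.18 ± 1.42 (SE), 52.0-fold with floored values, limma adjusted p = 2.85e-04). CSTA, an inhibitor of cysteine proteases, measured 2.77, 2.55, 3.79 and 5.10 in LBT dogs 1 to 4 and 5.02 to 12.07 (median 9.94) in the TZL dogs. LBT 4 and TZL 8 overlapped (log2 difference -6.12 ± 1.19 (SE), 42.3-fold with floored values, limma adjusted p = 2.39e-04). IL2, the T cell growth factor interleukin-2, measured 2.41, 3.67, 2.07 and 4.90 in LBT dogs 1 to 4 and 7.03 to 10.86 (median 8.29) in the TZL dogs. All 9 TZL dogs were above all 4 LBT dogs, and 3 of 4 PTCL dogs were below the threshold as well (log2 difference -5.49 ± 0.79 (SE), 23.0-fold with floored values, limma adjusted p = 5.91e-06). CCL21, a chemokine made by the stroma of the T zone, measured 2.59, 2.85, 3.57 and 3.02 in LBT dogs 1 to 4 and 5.32 to 11.52 (median 8.96) in the TZL dogs. No LBT dog reached the threshold (log2 difference -5.63 ± 0.84 (SE), at least 25.0-fold, limma adjusted p = 8.25e-06). The remaining leading genes were GLYAT, a glycine acyltransferase (15.1-fold lower), IFGGC1 (29.1-fold), LOC609053 (28.9-fold, groups overlapping), GBP5, an interferon-induced GTPase (19.2-fold), and CD8B, the CD8 beta chain (9.25-fold), all these folds being those of floored values. The GLYAT call rests on 1 probe set: its second, which was dim, gave -0.09, adjusted p = 0.729.

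Among the gene groups examined, those of mitosis and DNA replication stood highest in LBT and those of the interferon response lowest, as the plot of gene groups shows. Each group below is described by how many tested members were called in each direction and by its median log2 difference, to be read against 17.8% called higher, 12.4% called lower and a median of 0.05 over all tested genes. Up to 3 members with the smallest p stand for each group; any further member named was chosen after its values were seen.

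**Figure D2:**
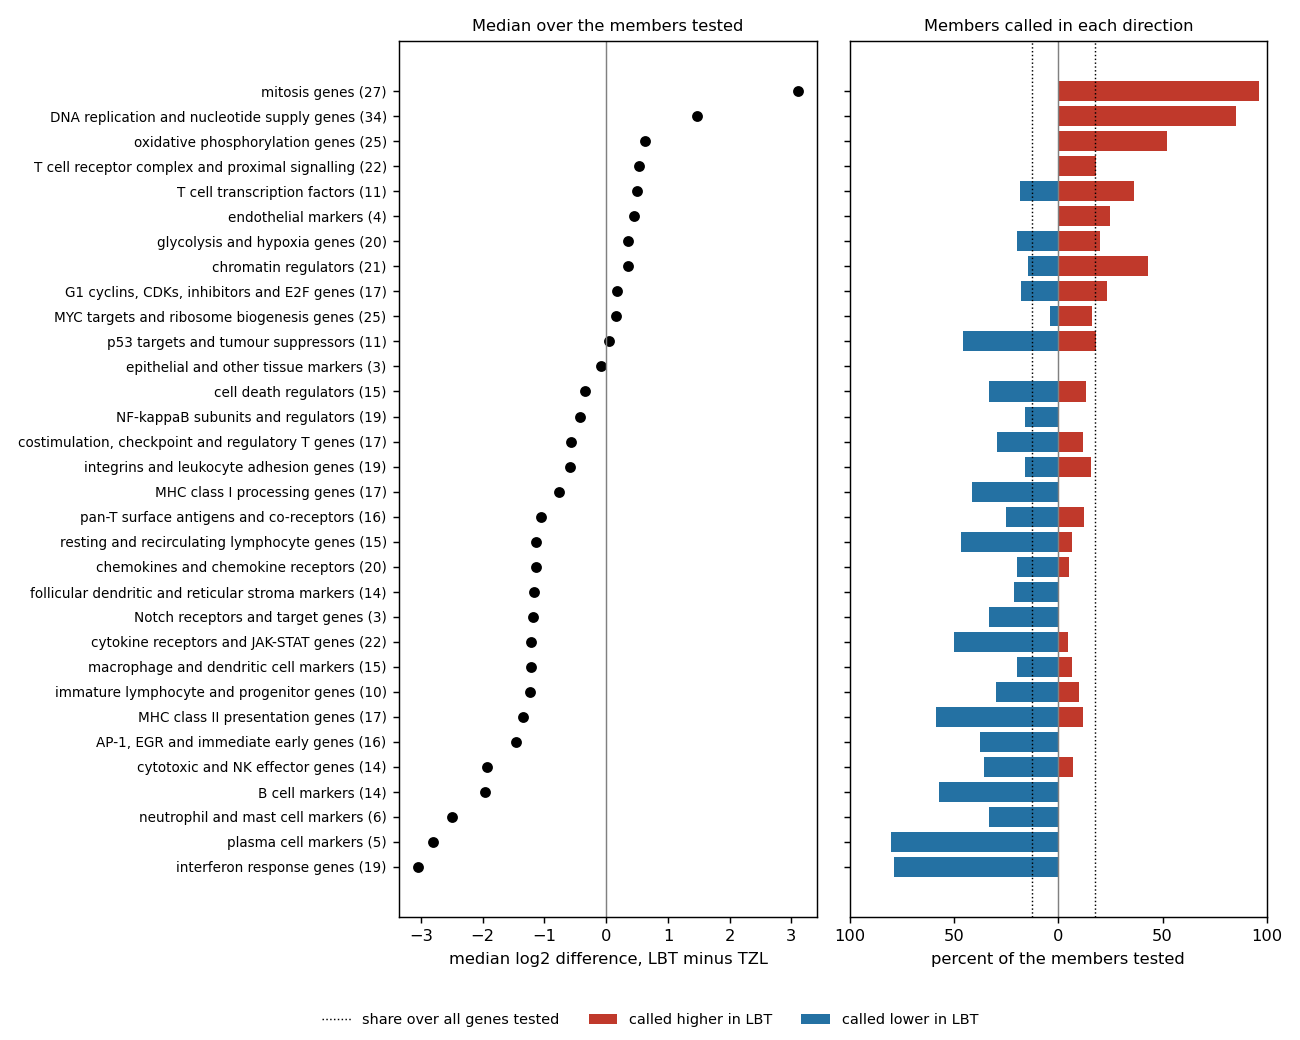
Left, median log2 difference (LBT minus TZL) over the tested members of each gene group, with the number tested in parentheses. Right, the percent of tested members called higher (red) and lower (blue) in LBT; dotted lines mark the shares over all 7500 tested genes, 17.8% higher and 12.4% lower. Mitosis genes have the highest median, 3.10, and interferon response genes the lowest, -3.04.

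Mitosis genes were higher in LBT almost without exception. Of 27 members tested, 26 were called higher and 0 lower, all 27 differences were positive, and in 23 the groups did not overlap; the median difference was 3.10, and 2.61 with floored values. CDK1, the kinase that drives entry into mitosis, measured 9.59, 9.45, 9.73 and 9.66 in LBT dogs 1 to 4 and 4.65 to 7.57 (median 6.34) in the TZL dogs. The 4 LBT dogs were close to each other and above every TZL dog (log2 difference 3.23 ± 0.43 (SE), 9.36-fold, limma adjusted p = 2.23e-06). KIF11, the kinesin that separates the spindle poles, measured 9.48, 8.77, 9.41 and 8.52 in LBT dogs 1 to 4 and 2.99 to 7.05 (median 4.60) in the TZL dogs. TZL dogs ranged widely, TZL 5 being lowest and TZL 9 highest, and all stayed below LBT (log2 difference 3.84 ± 0.57 (SE), 13.1-fold with floored values, limma adjusted p = 7.07e-06). KIF15, a spindle kinesin, measured 8.12, 7.07, 8.14 and 8.26 in LBT dogs 1 to 4 and 2.71 to 5.44 (median 4.18) in the TZL dogs. LBT 2 was the lowest LBT dog and still above every TZL dog (log2 difference 3.92 ± 0.47 (SE), 10.9-fold with floored values, limma adjusted p = 3.90e-07). TOP2A, the topoisomerase that untangles chromosomes (2.97), AURKA, a spindle pole kinase (2.61), PLK1, a mitotic kinase (2.65), and FOXM1, the transcription factor of mitotic genes (2.75), had positive log2 differences that were called.

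DNA replication and nucleotide supply genes followed the same direction at smaller size. Of 34 tested, 29 were called higher and 0 lower, all 34 differences were positive, 18 showed no overlap, and the median was 1.46. MCM5, a subunit of the replicative helicase, measured 10.07, 11.18, 11.17 and 11.41 in LBT dogs 1 to 4 and 6.59 to 8.05 (median 7.22) in the TZL dogs. The lowest LBT dog was well above the highest TZL dog (log2 difference 3.60 ± 0.37 (SE), 12.1-fold, limma adjusted p = 1.68e-08). MCM6, another helicase subunit, measured 12.41, 12.08, 12.60 and 11.77 in LBT dogs 1 to 4 and 9.95 to 11.15 (median 10.63) in the TZL dogs. These groups were also apart, with a smaller gap (log2 difference 1.62 ± 0.21 (SE), 3.07-fold, limma adjusted p = 1.03e-06). UHRF1, which recruits DNA methylation to replicated DNA, measured 5.53, 5.84, 5.12 and 5.27 in LBT dogs 1 to 4 and 2.57 to 3.50 (median 3.20) in the TZL dogs. No TZL dog reached the threshold (log2 difference 2.35 ± 0.29 (SE), at least 2.72-fold, limma adjusted p = 4.43e-07), and the second, dimmer UHRF1 probe set showed no difference (-0.02, adjusted p = 0.932). Genes of the G1 phase were divided: of 17 tested, 4 were called higher and 3 lower, with a median of 0.18. CDK4, the cyclin D kinase, measured 11.42, 11.87, 11.04 and 11.23 in LBT dogs 1 to 4 and 9.54 to 10.54 (median 9.91) in the TZL dogs. All LBT dogs were above all TZL dogs (log2 difference 1.34 ± 0.23 (SE), 2.53-fold, limma adjusted p = 4.30e-05). CCNE2, cyclin E2, was also higher (log2 difference 2.19 ± 0.39 (SE), 4.55-fold, limma adjusted p = 9.80e-05), as were CDKN3 and RBL1 (1.45 and 1.73). CDC25B, a phosphatase that activates cyclin-dependent kinases, measured 2.38, 3.65, 2.73 and 2.66 in LBT dogs 1 to 4 and 5.64 to 6.74 (median 6.29) in the TZL dogs. It went the other way, with no LBT dog at the threshold (log2 difference -3.38 ± 0.36 (SE), at least 4.73-fold, limma adjusted p = 4.42e-08), together with the CDK inhibitors CDKN1A (-2.38) and CDKN2D (-1.97).

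Chromatin regulators were called higher more often than lower, 9 against 3 of 21 tested, with a median of 0.36. The smallest p was that of UHRF1, given above with the replication genes. EZH2, the methyltransferase of Polycomb complex 2, measured 8.93, 7.74, 8.96 and 8.87 in LBT dogs 1 to 4 and 5.73 to 7.24 (median 6.16) in the TZL dogs. LBT 2 was the lowest of its group and above all TZL dogs (log2 difference 2.25 ± 0.31 (SE), 4.77-fold, limma adjusted p = 2.41e-06). HDAC2, a histone deacetylase, was higher by a smaller amount without overlap (log2 difference 1.14 ± 0.16 (SE), 2.20-fold, limma adjusted p = 4.56e-06), and DNMT3A, a DNA methyltransferase, had a difference of 2.55. The 3 called lower were KMT2A (-1.76), KMT2D (-1.90), both histone methyltransferases, and HMGA1 (-1.40). With the second probe set of each gene, 5 chromatin genes were called higher.

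Genes of the respiratory chain had small positive differences throughout. Of 25 tested, 13 were called higher and 0 lower, all 25 differences were positive, and the median was 0.63. NDUFA8, a subunit of complex I, measured 10.05, 10.71, 10.37 and 10.51 in LBT dogs 1 to 4 and 7.60 to 8.98 (median 8.50) in the TZL dogs. The groups were separate (log2 difference 2.01 ± 0.25 (SE), 4.03-fold, limma adjusted p = 5.65e-07). NDUFB5, of the same complex (log2 difference 1.22 ± 0.21 (SE), 2.33-fold, limma adjusted p = 5.30e-05), and UQCRC2, of complex III (log2 difference 1.12 ± 0.20 (SE), 2.17-fold, limma adjusted p = 7.03e-05), were higher as well. Glycolysis and hypoxia genes were divided, with 4 called higher and 4 lower of 20. ENO1, enolase, was higher (log2 difference 0.93 ± 0.16 (SE), 1.91-fold, limma adjusted p = 5.34e-05), as were PGK1 (log2 difference 0.59 ± 0.12 (SE), 1.51-fold, limma adjusted p = 3.87e-04) and PFKM, the muscle-type phosphofructokinase (log2 difference 1.65 ± 0.35 (SE), at least 2.23-fold, limma adjusted p = 6.41e-04). HK1 (-1.74), PFKL (-2.08), ALDOC (-1.57) and the glucose transporter SLC2A3 (-2.90) were lower; the count lower was 2 without LBT 2. For PGK1 the second probe set, which was dim (mean 2.18 in LBT and 2.02 in TZL), gave 0.16, adjusted p = 0.451. MYC targets and ribosome biogenesis genes were close to the background, with 4 higher and 1 lower of 25 and a median of 0.15. POLR1C, a subunit of RNA polymerases I and III, led them (log2 difference 1.31 ± 0.28 (SE), 2.48-fold, limma adjusted p = 7.47e-04), followed by RCC1 (1.44) and TRAP1 (0.94). MYC measured 6.96, 8.07, 6.98 and 7.21 in LBT dogs 1 to 4 and 7.56 to 9.90 (median 8.50) in the TZL dogs. Its difference did not pass the test (log2 difference -1.18 ± 0.48 (SE), 2.27-fold, limma adjusted p = 0.0599). It passed with only the 2 groups in the fit (-1.18, adjusted p = 0.0235), without LBT 2 (-1.44, adjusted p = 0.0423) and without TZL 4 (-1.30, adjusted p = 0.0431).

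**Figure D3:**
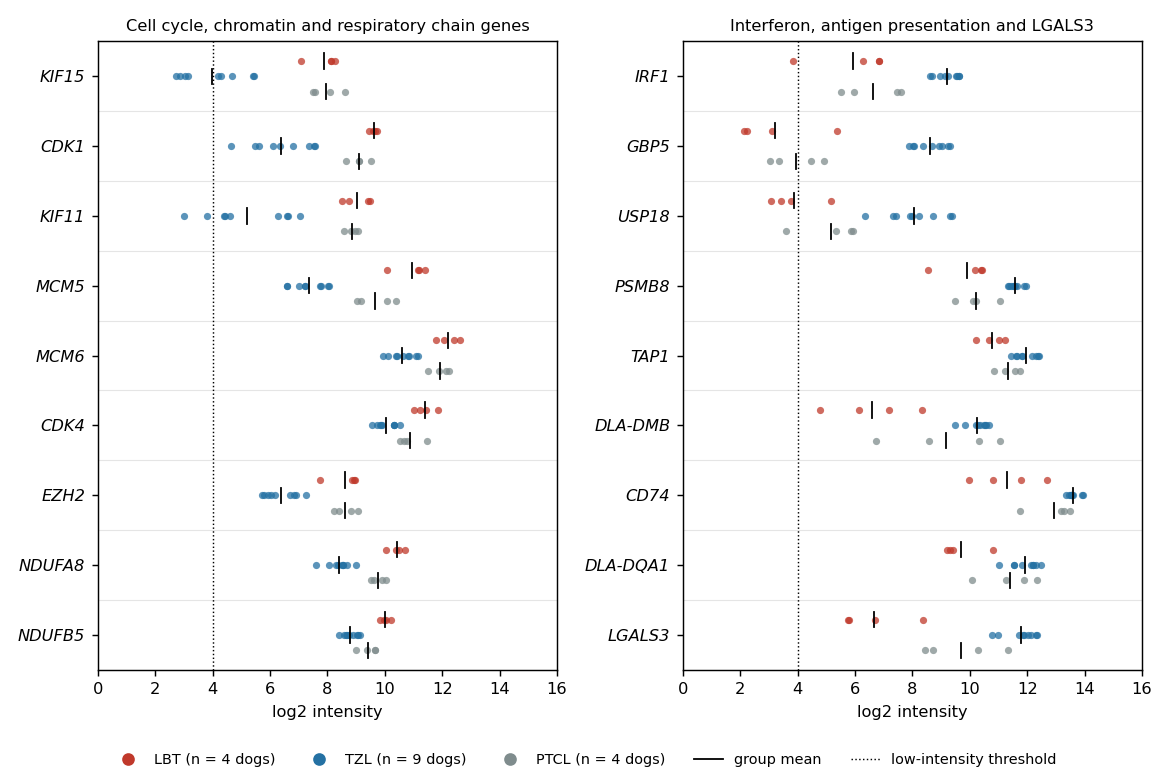
Log2 intensity (horizontal axes) of cell cycle, chromatin and respiratory chain genes (left) and of interferon, antigen presentation and LGALS3 genes (right), 1 point per dog for 4 LBT, 9 TZL and 4 PTCL dogs. Black bars are group means and the dotted line is the threshold of log2 4; all LBT points lie above all TZL points in the left panel and below them in the right panel.

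The T cell receptor complex was present in both groups. Of 22 genes of the receptor and its first signalling steps, 4 were called higher and 0 lower in LBT, with a median of 0.53. The share called higher was close to that over all tested genes. SH2D1A, the adaptor SAP of T and NK cells, measured 10.59, 10.09, 10.35 and 9.08 in LBT dogs 1 to 4 and 6.52 to 8.65 (median 7.83) in the TZL dogs. LBT was above every TZL dog (log2 difference 2.29 ± 0.60 (SE), 4.88-fold, limma adjusted p = 0.00425). THEMIS, needed for thymocyte selection (log2 difference 2.04 ± 0.61 (SE), 3.89-fold with floored values, limma adjusted p = 0.0118), and ICOS, a costimulatory receptor (log2 difference 1.98 ± 0.68 (SE), 3.75-fold with floored values, limma adjusted p = 0.0261), were also called, with groups that overlapped. For ICOS the LBT dogs were themselves divided, 3 of them between 7.34 and 8.02 and LBT 2 at 3.29. The number called higher was 2 without any 1 of LBT 1, LBT 3 and LBT 4, 2 with sex and age as covariates, 1 with Golden Retrievers only or without the arrays with a high actin 3' control, and 7 with only the 2 groups in the fit. The THEMIS call was lost without LBT 1 (1.64, adjusted p = 0.0763). The ICOS call was lost without LBT 1 (1.49, adjusted p = 0.147), LBT 3 (1.72, adjusted p = 0.0949) or LBT 4 (1.65, adjusted p = 0.103), while without LBT 2 its difference was 3.07. Both calls were also lost with Golden Retrievers only (THEMIS 1.42, adjusted p = 0.0525; ICOS 1.28, adjusted p = 0.183), with sex and age as covariates (THEMIS 1.53, adjusted p = 0.0874; ICOS 1.66, adjusted p = 0.0866) and without the arrays with a high actin 3' control (THEMIS 1.39, adjusted p = 0.0864; ICOS 1.32, adjusted p = 0.120). The ICOS call was lost as well with only the 2 groups in the fit (1.98, adjusted p = 0.0788), with those arrays as a block (1.53, adjusted p = 0.0662) and with the actin and GAPDH 3' to 5' differences as covariates (1.59, adjusted p = 0.0595).

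PTPRC, which encodes CD45, was higher in LBT. PTPRC measured 12.34, 10.50, 12.01 and 11.86 in LBT dogs 1 to 4 and 3.14 to 10.67 (median 9.46) in the TZL dogs. TZL 5 stood far below the other 8 TZL dogs, which lay between 8.61 and 10.67, and LBT 2 overlapped with TZL 3 (log2 difference 2.87 ± 0.75 (SE), 6.85-fold with floored values, limma adjusted p = 0.00436). The call was lost with only the 2 groups in the fit (2.87, adjusted p = 0.0540) and with Golden Retrievers only (2.73, adjusted p = 0.0590). In the PTCL dogs PTPRC measured 11.37, 12.12, 11.50 and 10.99, close to LBT. Of 16 pan-T surface antigens and co-receptors tested, 2 were called higher, DPP4 and PTPRC, and 4 lower.

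The CD8 chains were the pan-T genes with the largest negative differences. CD8A, the CD8 alpha chain, measured 2.00, 2.27, 1.85 and 2.14 in LBT dogs 1 to 4 and 2.85 to 10.97 (median 5.94) in the TZL dogs. In LBT no dog reached the threshold (log2 difference -4.33 ± 1.02 (SE), 6.31-fold with floored values, limma adjusted p = 0.00173). CD8B measured 1.75, 1.77, 2.39 and 1.92 in LBT dogs 1 to 4 and 3.33 to 11.68 (median 6.75) in the TZL dogs. TZL 5, TZL 6 and TZL 7 had high values of both chains, CD8A from 8.52 to 10.97 and CD8B from 10.95 to 11.68, while 3 TZL dogs had CD8A below the threshold. CD4, the co-receptor of helper T cells, measured 7.64, 6.91, 6.55 and 9.45 in LBT dogs 1 to 4 and 3.05 to 8.61 (median 4.52) in the TZL dogs. CD4 was above the threshold in all 4 LBT dogs and 7 of 9 TZL dogs, and its difference did not pass the test (log2 difference 1.93 ± 0.82 (SE), 3.31-fold with floored values, limma adjusted p = 0.0722). It passed without TZL 3 (2.30, adjusted p = 0.0246), TZL 8 (2.29, adjusted p = 0.0252) or TZL 9 (2.27, adjusted p = 0.0282), with the second probe set (2.13, adjusted p = 0.0317) and with the mean of its probe sets (2.03, adjusted p = 0.0440). CD40LG, the CD40 ligand of activated helper T cells, measured 6.10, 6.40, 7.72 and 9.15 in LBT dogs 1 to 4 and 8.72 to 10.40 (median 9.25) in the TZL dogs. It was lower in LBT with overlapping groups (log2 difference -2.23 ± 0.53 (SE), 4.68-fold, limma adjusted p = 0.00182). CD5, a T cell surface antigen often lost in T cell tumours, measured 9.01, 10.24, 3.96 and 6.24 in LBT dogs 1 to 4 and 8.44 to 10.11 (median 9.52) in the TZL dogs. LBT 1 was in the TZL range, LBT 2 just above it and LBT 3 and LBT 4 below it. The CD5 difference was called (log2 difference -1.97 ± 0.71 (SE), 3.89-fold with floored values, limma adjusted p = 0.0341) and rested on LBT 3 and LBT 4. It was -0.84, adjusted p = 0.364 without LBT 3 and -1.60, adjusted p = 0.130 without LBT 4, and without TZL 9 it was -1.88, adjusted p = 0.0518. The CD5 call was also lost with only the 2 groups in the fit (-1.97, adjusted p = 0.0906) and without the filter on low values (-1.97, adjusted p = 0.0571).

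Of 11 T cell transcription factors tested, 4 were called higher and 2 lower, with a median of 0.51. IKZF2, the Ikaros family factor Helios, measured 10.29, 9.86, 11.24 and 10.88 in LBT dogs 1 to 4 and 2.47 to 7.35 (median 4.68) in the TZL dogs. LBT was above every TZL dog (log2 difference 6.04 ± 0.73 (SE), 48.9-fold with floored values, limma adjusted p = 4.11e-07), although a second, dimmer probe set gave 0.10, adjusted p = 0.870. Another IKZF2 probe set gave 5.78 (limma adjusted p = 1.86e-07 in a fit of all probe sets). The dimmest gave 0.06 and was not tested. TOX, a factor of thymocyte development and of exhausted T cells, measured 8.99, 8.11, 8.90 and 8.95 in LBT dogs 1 to 4 and 1.19 to 6.19 (median 5.26) in the TZL dogs. TZL 5 was again the lowest (log2 difference 3.79 ± 0.82 (SE), 11.1-fold with floored values, limma adjusted p = 7.33e-04). TCF7 (2.06) and SATB1 (1.77), both active in developing T cells, were the other 2 called higher. PRDM1, the repressor Blimp-1 of effector and plasma cells, measured 2.00, 1.82, 2.25 and 3.17 in LBT dogs 1 to 4 and 2.93 to 7.04 (median 5.08) in the TZL dogs. It was lower in LBT (log2 difference -2.81 ± 0.69 (SE), limma adjusted p = 0.00243), as was EOMES (-1.88), a factor of effector and memory T cells. With floored values the PRDM1 difference was -1.24, 2.35-fold, limma adjusted p = 0.0729. The count lower was 0 with floored values. It was 1 with only the 2 groups in the fit, with Golden Retrievers only, with sex and age as covariates, with the high actin arrays as a block or without any 1 of LBT 1, LBT 2, TZL 1, TZL 2, TZL 3, LBT 4, TZL 7 and TZL 9. T cells also express PRDM1, which is counted among the plasma cell markers below.

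Genes of immature lymphocytes were called in both directions. Of 26 genes listed, 10 were tested; 1 was called higher and 3 lower. MYB, a transcription factor of progenitors and thymocytes, measured 9.43, 7.88, 8.57 and 7.08 in LBT dogs 1 to 4 and 1.66 to 2.59 (median 2.19) in the TZL dogs. No TZL dog reached the threshold and no LBT dog was below it (log2 difference 6.10 ± 0.53 (SE), at least 18.9-fold, limma adjusted p = 7.57e-10). DNTT, the terminal transferase of lymphoblasts, measured 5.42, 2.81, 4.42 and 2.76 in LBT dogs 1 to 4 and 1.71 to 2.95 (median 2.47) in the TZL dogs. Only LBT 1 and LBT 3 were above the threshold, and the difference did not pass the test (log2 difference 1.44 ± 0.78 (SE), 1.38-fold with floored values, limma adjusted p = 0.163), though it did with only the 2 groups in the fit (1.44, adjusted p = 0.0206). RAG1, of the recombinase, CD34, a progenitor antigen, and KIT, a stem cell factor receptor, were below the threshold in all 13 dogs and were not tested. CD99 measured 6.96, 7.25, 8.13 and 6.59 in LBT dogs 1 to 4 and 9.81 to 11.42 (median 11.06) in the TZL dogs. CD99, a surface glycoprotein high on many immature cells, was lower in LBT without overlap (log2 difference -3.55 ± 0.81 (SE), 11.7-fold, limma adjusted p = 0.00133). ADA, adenosine deaminase, was called lower (log2 difference -1.44 ± 0.55 (SE), 2.47-fold with floored values, limma adjusted p = 0.0474), a call lost under 20 of the 29 alternatives, including without LBT 1 (-0.71, adjusted p = 0.368). The count lower in this group was 1 without any 1 of LBT 2, TZL 2, TZL 3, TZL 6, TZL 7 and TZL 9 and 5 without TZL 5. It was 1 as well with floored values, with sex and age as covariates, and without the high actin arrays or with either correction for the actin control. Of 17 Notch receptors and targets, 3 were tested and 1 was called. DTX1, a Notch target, was lower (log2 difference -1.72 ± 0.43 (SE), limma adjusted p = 0.00286). Its call was lost with floored values (-0.32, 1.25-fold, adjusted p = 0.252) and with only the 2 groups in the fit (-1.72, adjusted p = 0.0516). The count was 2 without LBT 2 or TZL 4. RBPJ, the DNA-binding partner of Notch, did not pass the test (log2 difference 0.56 ± 0.76 (SE), 1.47-fold, limma adjusted p = 0.614).

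**Figure D4:**
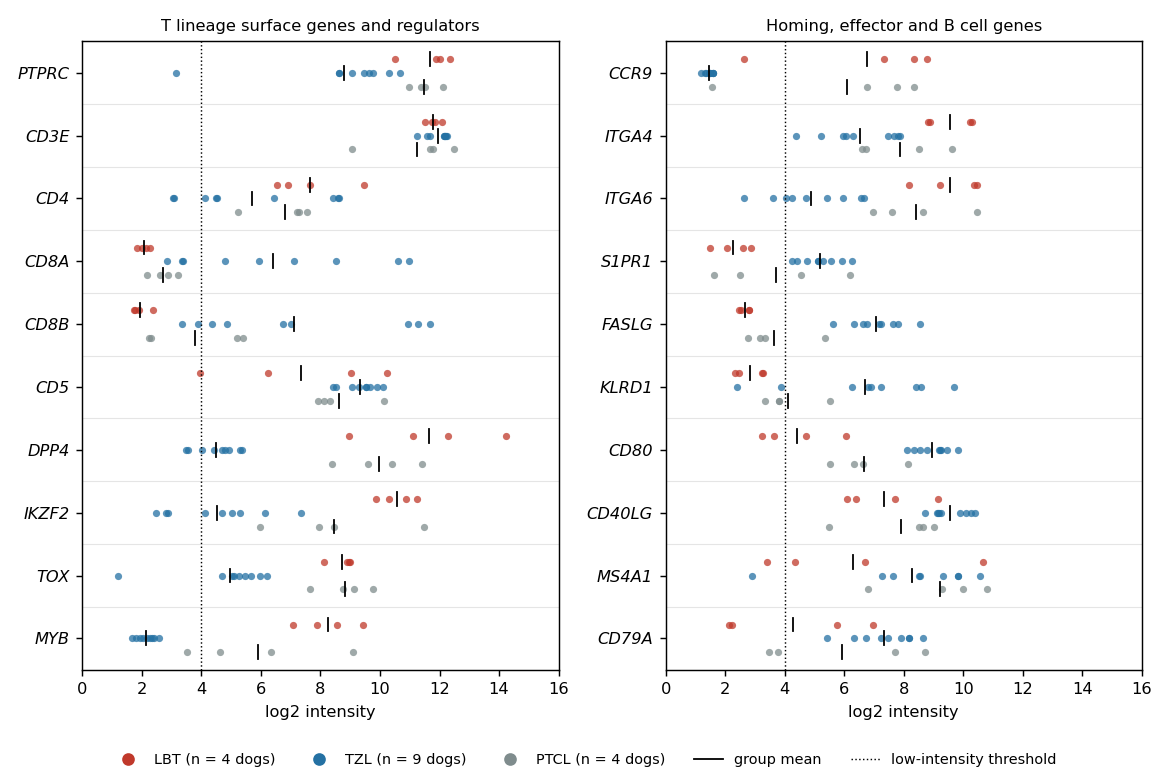
Log2 intensity (horizontal axes) of T lineage surface genes and regulators (left) and of homing, effector and B cell genes (right), 1 point per dog for 4 LBT, 9 TZL and 4 PTCL dogs. Black bars are group means and the dotted line is the threshold of log2 4; CD3E is at a like level in LBT and TZL, CD8A and CD8B are below the threshold in every LBT dog, and TZL 5 has the lowest PTPRC, TOX and MS4A1 values of the TZL dogs.

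Genes of resting and recirculating lymphocytes were called lower more often than higher in LBT, 7 lower and 1 higher of 15 tested, with a median of -1.14; the count lower was 4 without LBT 3. S1PR1, the receptor by which lymphocytes leave nodes, measured 1.51, 2.88, 2.07 and 2.60 in LBT dogs 1 to 4 and 4.25 to 6.26 (median 5.13) in the TZL dogs. LBT was below the threshold in every dog and TZL above it in every dog (log2 difference -2.92 ± 0.73 (SE), at least 2.28-fold, limma adjusted p = 0.00285). TXNIP, a redox regulator of quiescent cells, was lower by a small amount without overlap (log2 difference -0.93 ± 0.28 (SE), 1.91-fold, limma adjusted p = 0.0111; second probe set -0.59, adjusted p = 0.581, mean of its probe sets -0.76, adjusted p = 0.226). IL7R, the interleukin-7 receptor (-1.92), KLF6 (-2.36) and BTG2 (-1.79) were lower as well. ITGA6, the integrin alpha 6 chain, measured 10.37, 9.22, 10.46 and 8.18 in LBT dogs 1 to 4 and 2.63 to 6.65 (median 4.70) in the TZL dogs. It was the member called higher (log2 difference 4.69 ± 0.97 (SE), 22.5-fold with floored values, limma adjusted p = 4.72e-04).

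Of 19 integrin and adhesion genes, 3 were called higher and 3 lower (5 lower with only the 2 groups in the fit). Of 20 chemokines and receptors 1 was called higher and 4 lower (2 lower with floored values). CCR9, the receptor for the thymic and intestinal chemokine CCL25, measured 8.77, 8.34, 7.33 and 2.64 in LBT dogs 1 to 4 and 1.20 to 1.61 (median 1.48) in the TZL dogs. LBT 1 to LBT 3 were high, whereas LBT 4 and all 9 TZL dogs were below the threshold (log2 difference 5.31 ± 0.79 (SE), 8.63-fold with floored values, limma adjusted p = 8.86e-06). ITGA4, the integrin alpha 4 chain, which pairs with beta 7 or beta 1, measured 10.22, 8.80, 10.28 and 8.89 in LBT dogs 1 to 4 and 4.39 to 7.89 (median 6.30) in the TZL dogs. The groups did not overlap (log2 difference 3.03 ± 0.62 (SE), 8.14-fold, limma adjusted p = 4.01e-04). ITGB1, the beta 1 chain, measured 7.82, 3.73, 4.20 and 3.95 in LBT dogs 1 to 4 and 6.90 to 9.07 (median 8.23) in the TZL dogs. LBT 1 was in the TZL range and the other 3 LBT dogs were far below it (log2 difference -3.31 ± 0.61 (SE), 9.36-fold with floored values, limma adjusted p = 1.19e-04). ITGA1, the alpha 1 chain, was lower too (log2 difference -2.91 ± 0.43 (SE), 1.71-fold with floored values, limma adjusted p = 6.82e-06). Besides CCL21, CCL19, the second chemokine of the T zone, was lower: CCL19 measured 2.80, 3.58, 3.55 and 5.36 in LBT dogs 1 to 4 and 6.09 to 11.78 (median 8.73) in the TZL dogs. The groups did not overlap (log2 difference -4.97 ± 0.76 (SE), 21.9-fold with floored values, limma adjusted p = 1.11e-05). CCL20 had a difference of -2.47, and CXCL12, a stromal chemokine, one of -1.38 that was lost under 16 of 28 alternatives.

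Effector genes were called lower more often than higher in LBT. Of 14 cytotoxic and NK genes tested, 5 were called lower and 1 higher, with a median of -1.93. FASLG, the Fas ligand, measured 2.47, 2.54, 2.80 and 2.81 in LBT dogs 1 to 4 and 5.63 to 8.55 (median 7.16) in the TZL dogs. No LBT dog reached the threshold and every TZL dog did (log2 difference -4.42 ± 0.55 (SE), at least 8.46-fold, limma adjusted p = 5.65e-07; a second, dimmer probe set gave -0.17, adjusted p = 0.411). KLRD1, the NK receptor CD94, measured 2.48, 3.29, 3.23 and 2.33 in LBT dogs 1 to 4 and 2.39 to 9.70 (median 6.90) in the TZL dogs. TZL 5 and TZL 6 were below the threshold as well (log2 difference -3.85 ± 0.96 (SE), 7.33-fold with floored values, limma adjusted p = 0.00274). CST7, the cystatin of cytotoxic granules, was lower (log2 difference -2.66 ± 0.52 (SE), 4.89-fold with floored values, limma adjusted p = 2.69e-04), with LBT 4 at 6.86 and the other LBT dogs below the threshold. CTSW, a cathepsin of cytotoxic cells, was the member called higher (3.40).

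Of 17 costimulation, checkpoint and regulatory T genes tested, 5 were called lower and 2 higher, the latter being IKZF2 and ICOS (1 without LBT 1 or LBT 4 and in each setting that ended the ICOS call). LGALS3, the lectin galectin-3, measured 5.80, 8.38, 6.70 and 5.76 in LBT dogs 1 to 4 and 10.79 to 12.35 (median 11.89) in the TZL dogs. The groups were far apart (log2 difference -5.12 ± 0.58 (SE), 34.8-fold, limma adjusted p = 1.36e-07). CD80, a ligand of CD28 and CTLA4, measured 3.25, 3.65, 4.71 and 6.05 in LBT dogs 1 to 4 and 8.11 to 9.80 (median 9.17) in the TZL dogs. All TZL dogs were above all LBT dogs (log2 difference -4.55 ± 0.56 (SE), 19.4-fold with floored values, limma adjusted p = 4.47e-07). CD70, the ligand of CD27 (-3.24), and TGFB1 (-1.75) were lower. IL2RA, the interleukin-2 receptor alpha chain CD25, measured 1.99, 2.31, 2.39 and 2.85 in LBT dogs 1 to 4 and 2.80 to 5.61 (median 4.16) in the TZL dogs. IL2RA was lower (log2 difference -1.80 ± 0.52 (SE), limma adjusted p = 0.00977), a call lost with floored values (-0.55, 1.46-fold, adjusted p = 0.237).

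Of 22 cytokine receptors and JAK-STAT genes tested, 11 were called lower and 1 higher, with a median of -1.22 and of -0.46 with floored values. IFNGR1, the interferon gamma receptor, measured 6.98, 6.25, 7.43 and 7.35 in LBT dogs 1 to 4 and 9.03 to 10.44 (median 9.50) in the TZL dogs. The groups did not overlap (log2 difference -2.49 ± 0.36 (SE), 5.60-fold, limma adjusted p = 6.36e-06). PIM1, a kinase induced by cytokines, was below the threshold in every LBT dog (log2 difference -3.0 ± 0.45 (SE), 2.21-fold with floored values, limma adjusted p = 9.97e-06). IL15RA was below it in every LBT dog and 5 of 9 TZL dogs (log2 difference -1.61 ± 0.24 (SE), limma adjusted p = 1.00e-05). With floored values the IL15RA difference was -0.17, 1.13-fold, limma adjusted p = 0.260. Also called lower were CISH (-4.01) and SOCS2 (-1.79), both inhibitors of cytokine signalling, IL2RB, a chain of the interleukin-2 receptor (-2.61), and STAT4, a transducer of interleukin-12 signals (-3.66). With the filter at log2 6 in place of 4, 5 members were called lower. IL6ST, the shared chain gp130, was the member called higher (3.13).

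Immediate early genes had negative differences without exception. All 16 tested members of the AP-1 and EGR group had negative differences, 6 of them called, with a median of -1.45; the count was 2 without LBT 1 and 3 with sex and age as covariates. JUNB, a subunit of AP-1, measured 4.12, 6.62, 4.60 and 7.70 in LBT dogs 1 to 4 and 5.31 to 10.45 (median 9.18) in the TZL dogs. TZL 7 was far below the other 8 TZL dogs (log2 difference -3.12 ± 0.90 (SE), 8.71-fold, limma adjusted p = 0.00908). DUSP5, a phosphatase of MAP kinases (log2 difference -2.96 ± 0.69 (SE), 6.47-fold with floored values, limma adjusted p = 0.00148), and ZFP36, which destabilises cytokine transcripts (log2 difference -2.46 ± 0.69 (SE), 4.88-fold with floored values, limma adjusted p = 0.00747), followed. Without LBT 1 the calls for JUNB (-2.58, adjusted p = 0.0588) and ZFP36 (-2.02, adjusted p = 0.0521) were lost. Of 19 NF-kappaB genes, 0 were called higher and 3 lower (1 without LBT 2 and 5 without LBT 4). TNFAIP3, the deubiquitinase A20, was lower (log2 difference -2.63 ± 0.76 (SE), 2.83-fold with floored values, limma adjusted p = 0.00941; without LBT 2 -2.04, adjusted p = 0.0652). BIRC3, an inhibitor of apoptosis, was lower (log2 difference -1.80 ± 0.50 (SE), 3.48-fold, limma adjusted p = 0.00674). Its call was lost without LBT 1 (-1.45, adjusted p = 0.0526), LBT 2 (-1.33, adjusted p = 0.0605) or with Golden Retrievers only (-1.48, adjusted p = 0.0755). The second BIRC3 probe set (-1.62, adjusted p = 0.0634) and the mean of its probe sets (-0.89, adjusted p = 0.0860) did not pass the test either. The last was BCL3, an atypical IkappaB protein (log2 difference -1.60 ± 0.37 (SE), limma adjusted p = 0.00146). With floored values the BCL3 difference was -0.48, 1.39-fold, limma adjusted p = 0.104.

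Of 15 cell death regulators, 5 were called lower and 2 higher. Without LBT 1 or with Golden Retrievers only the count higher was 1. The smallest p was that of FASLG, given above with the cytotoxic genes, and BIRC3 was counted among the NF-kappaB genes too. BCL2A1, a survival protein of the BCL2 family, measured 8.93, 9.12, 9.09 and 10.75 in LBT dogs 1 to 4 and 11.19 to 12.35 (median 11.71) in the TZL dogs. LBT 4 was the highest LBT dog and below every TZL dog (log2 difference -2.34 ± 0.36 (SE), 5.07-fold, limma adjusted p = 1.13e-05). FAS (-2.56) and BCL2L1 (-1.78) were lower, and BID, a pro-apoptotic member, was higher without overlap (log2 difference 1.22 ± 0.25 (SE), 2.34-fold, limma adjusted p = 4.11e-04). BCL2 measured 8.48, 8.11, 7.67 and 7.42 in LBT dogs 1 to 4 and 7.89 to 9.66 (median 8.58) in the TZL dogs. BCL2 did not pass the test (log2 difference -0.87 ± 0.58 (SE), 1.83-fold, limma adjusted p = 0.267), nor did BCL6, a repressor of follicular cells (log2 difference 0.00 ± 0.80 (SE), limma adjusted p = 1). Of 11 p53 targets and tumour suppressors, 5 were lower (3 without LBT 3 or with sex and age as covariates) and 2 higher. GADD45B, a stress-induced gene, measured 4.37, 5.63, 4.17 and 7.35 in LBT dogs 1 to 4 and 8.92 to 11.56 (median 9.92) in the TZL dogs. The groups were separate (log2 difference -4.77 ± 0.67 (SE), 27.2-fold, limma adjusted p = 4.29e-06). MDM2, the p53 ligase, was lower by a small amount (log2 difference -0.79 ± 0.17 (SE), 1.73-fold, limma adjusted p = 8.29e-04), and CHEK1, the checkpoint kinase of replication, was higher (log2 difference 2.45 ± 0.38 (SE), 3.75-fold with floored values, limma adjusted p = 1.32e-05).

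Interferon response genes formed the lowest group. Of 19 tested, 15 were called lower and 0 higher, 13 had no overlap between the groups, and the median was -3.04, or -2.73 with floored values. IRF1, a transcription factor induced by interferon, measured 3.83, 6.84, 6.83 and 6.28 in LBT dogs 1 to 4 and 8.61 to 9.63 (median 9.25) in the TZL dogs. LBT 1 was the lowest and all LBT dogs were below all TZL dogs (log2 difference -3.27 ± 0.52 (SE), 9.36-fold with floored values, limma adjusted p = 2.26e-05). GBP5 measured 2.24, 2.15, 3.09 and 5.37 in LBT dogs 1 to 4 and 7.87 to 9.31 (median 8.67) in the TZL dogs. LBT 4 was the only LBT dog above the threshold (log2 difference -5.39 ± 0.51 (SE), 19.2-fold with floored values, limma adjusted p = 4.71e-09). USP18, a protease that removes ISG15, measured 3.06, 3.44, 3.77 and 5.16 in LBT dogs 1 to 4 and 6.36 to 9.39 (median 8.00) in the TZL dogs. The groups did not overlap (log2 difference -4.21 ± 0.80 (SE), 13.7-fold with floored values, limma adjusted p = 1.72e-04). ISG15 (-4.30), MX2 (-4.48), OAS2 (-3.96) and IRF7 (-3.34) were lower too. With Golden Retrievers only, 9 members were called lower.

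Of 17 tested genes of MHC class I processing, 7 were called lower and 0 higher, with a median of -0.76. PSMB8, a subunit of the immunoproteasome, measured 8.54, 10.17, 10.44 and 10.39 in LBT dogs 1 to 4 and 11.32 to 11.94 (median 11.54) in the TZL dogs. LBT 1 was lowest and all LBT dogs were below all TZL dogs (log2 difference -1.69 ± 0.27 (SE), 3.23-fold, limma adjusted p = 2.06e-05). TAP1, the peptide transporter (log2 difference -1.17 ± 0.22 (SE), 2.25-fold, limma adjusted p = 1.82e-04), and PSME1, a proteasome activator (log2 difference -1.09 ± 0.20 (SE), 2.13-fold, limma adjusted p = 1.08e-04), were lower as well. Of 17 MHC class II genes, 10 were called lower and 2 higher (CTSH and RFXANK; 0 without TZL 1, LBT 4 or the high actin arrays and 1 without any 1 of LBT 1, LBT 2, TZL 2, LBT 3, TZL 4, TZL 6 and TZL 8), with a median of -1.35. DLA-DMB, a chain of the peptide exchange factor DM, measured 4.78, 7.19, 6.14 and 8.32 in LBT dogs 1 to 4 and 9.47 to 10.66 (median 10.37) in the TZL dogs. Among LBT dogs, dog 1 was lowest and dog 4 highest, as for CD74. CD74, the invariant chain, measured 9.98, 10.81, 11.77 and 12.67 in LBT dogs 1 to 4 and 13.34 to 13.94 (median 13.53) in the TZL dogs. The groups did not overlap for either (DLA-DMB log2 difference -3.66 ± 0.50 (SE), 12.6-fold, limma adjusted p = 2.66e-06; CD74 log2 difference -2.28 ± 0.32 (SE), 4.87-fold, limma adjusted p = 4.23e-06). DLA-DQA1, a class II alpha chain, measured 9.22, 9.32, 9.42 and 10.80 in LBT dogs 1 to 4 and 11.01 to 12.49 (median 12.14) in the TZL dogs. LBT 4 was again the highest (log2 difference -2.23 ± 0.32 (SE), 4.67-fold, limma adjusted p = 5.58e-06). CIITA, the activator of class II transcription, had a difference of -2.53. Class II genes are expressed by B cells, macrophages and dendritic cells, and in the dog by T cells, and the markers of those cells are given next.

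Markers of other cell types were more often called lower than higher in LBT, and their part in the differences above was not tested. Of 14 B cell markers, 8 were called lower and 0 higher, with a median of -1.97. The count was 1 without LBT 1, 4 without LBT 2 and 5 without LBT 3, 2 with Golden Retrievers only, 3 without the arrays with a high actin 3' control, and 5 with only the 2 groups in the fit or with floored values. The summed intensity of the 16 B cell markers with a probe set was 98.7 to 2744 in the LBT dogs and 486 to 6846 (median 2965) in the TZL dogs, and 2 of them were below the threshold in all 13 dogs. MS4A1, the B cell antigen CD20, measured 3.42, 4.35, 6.70 and 10.66 in LBT dogs 1 to 4 and 2.91 to 10.55 (median 8.55) in the TZL dogs. LBT 4 was the highest of the 13 dogs, LBT 1 was below the threshold, and TZL 5 was lowest. The MS4A1 difference did not pass the test (log2 difference -1.98 ± 0.99 (SE), 3.89-fold with floored values, limma adjusted p = 0.131) but did so without LBT 4 (-3.44, adjusted p = 0.00656) and without TZL 5 (-2.65, adjusted p = 0.0142). CD79A, part of the antigen receptor complex on B cells, measured 2.13, 5.77, 2.23 and 6.96 in LBT dogs 1 to 4 and 5.42 to 8.65 (median 7.48) in the TZL dogs. CD79A was lower (log2 difference -3.07 ± 0.83 (SE), 4.48-fold with floored values, limma adjusted p = 0.00538), a call lost without LBT 1 (-2.36, adjusted p = 0.0520). FCRLA, a B cell Fc receptor-like protein, was lower (log2 difference -3.74 ± 1.08 (SE), 8.71-fold with floored values, limma adjusted p = 0.00893). The FCRLA call was lost without LBT 1 as well (-2.90, adjusted p = 0.0698), with Golden Retrievers only (-2.75, adjusted p = 0.0828) and without the arrays with a high actin 3' control (-3.30, adjusted p = 0.0501). TNFRSF13B, the receptor TACI, was lower (log2 difference -1.81 ± 0.51 (SE), limma adjusted p = 0.00812), a call lost with floored values (-1.03, 2.05-fold, adjusted p = 0.103).

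Plasma cell markers were lower in 4 of 5 (2 without LBT 1 or without the high actin arrays), with a summed intensity of 1870 to 3307 in the LBT dogs and 5083 to 15010 (median 12460) in the TZL dogs. JCHAIN, the joining chain of secreted antibodies, measured 9.55, 8.72, 10.83 and 10.68 in LBT dogs 1 to 4 and 11.59 to 13.49 (median 13.03) in the TZL dogs. The groups did not overlap (log2 difference -2.80 ± 0.63 (SE), 6.96-fold, limma adjusted p = 0.00109). For CD38 they did (log2 difference -2.81 ± 0.89 (SE), 5.07-fold with floored values, limma adjusted p = 0.0167; without LBT 1 -2.50, adjusted p = 0.0676, without LBT 3 -2.34, adjusted p = 0.0797). For CD38 the call ended, too, with array weights (-2.52, adjusted p = 0.0563), with only the 2 groups in the fit (-2.81, adjusted p = 0.0643), with Golden Retrievers only (-2.59, adjusted p = 0.0904), without the arrays with a high actin 3' control (-2.76, adjusted p = 0.0508) and with sex and age as covariates (-2.48, adjusted p = 0.0652). Macrophage and dendritic cell markers were lower in 3 and higher in 1 of 15, with a summed intensity of 1886 to 5405 in the LBT dogs and 329 to 11780 (median 6290) in the TZL dogs. The count lower was 0 without LBT 1 or with floored values. It was 1 without LBT 3, with only the 2 groups in the fit, with Golden Retrievers only, without the high actin arrays or with sex and age as covariates. CD14 was higher (log2 difference 1.56 ± 0.36 (SE), 1.67-fold with floored values, limma adjusted p = 0.00147). SPI1, the factor PU.1 (log2 difference -1.72 ± 0.55 (SE), 2.11-fold with floored values, limma adjusted p = 0.0176), and the scavenger receptor MARCO (log2 difference -1.41 ± 0.47 (SE), 1.23-fold with floored values, limma adjusted p = 0.0222) were lower. Neither held without LBT 1 (SPI1 -1.49, adjusted p = 0.0785; MARCO -1.30, adjusted p = 0.0730), and SPI1 was also lost without LBT 3 (-1.41, adjusted p = 0.0862). With values below the threshold set to it SPI1 (-1.08, adjusted p = 0.0842) and MARCO (-0.30, adjusted p = 0.438) both lost the call. So did SPI1 with only the 2 groups in the fit (-1.72, adjusted p = 0.0609) or Golden Retrievers only (-1.51, adjusted p = 0.115). The MARCO call was lost with its second probe set (-1.46, adjusted p = 0.0516), with sex and age as covariates (-1.31, adjusted p = 0.0539) or without the arrays with a high actin 3' control (-1.25, adjusted p = 0.0520). Stromal markers were lower in 3 of 14, these being CCL19, CCL21 and CXCL12, and summed to 622 to 1736 in the LBT dogs and 1288 to 11680 (median 2182) in the TZL dogs. Of 6 neutrophil and mast cell markers tested, 2 were lower. The count was 1 without any 1 of LBT 1, LBT 2, TZL 2, LBT 3 and TZL 3 and 4 without TZL 5 or TZL 8. The genes were MS4A2 (log2 difference -0.96 ± 0.27 (SE), 1.16-fold with floored values, limma adjusted p = 0.00763) and FCER1A (log2 difference -2.37 ± 0.83 (SE), 2.17-fold with floored values, limma adjusted p = 0.0294), both chains of the IgE receptor. The MS4A2 call was lost with floored values (-0.21, adjusted p = 0.399), with the second probe set (-0.43, adjusted p = 0.511) and with the mean of its probe sets (-0.69, adjusted p = 0.0876), and with floored values neither gene was called. S100A9, a neutrophil and monocyte protein, did not pass the test (log2 difference -2.93 ± 1.17 (SE), 6.23-fold with floored values, limma adjusted p = 0.0556). It passed without TZL 5 (-3.35, adjusted p = 0.0269) or TZL 8 (-3.12, adjusted p = 0.0483), with only the 2 groups in the fit (-2.94, adjusted p = 0.0296), with quantile normalization (-3.0, adjusted p = 0.0480) and without the dogs whose sex probe set opposed the label (-2.94, adjusted p = 0.0453). FCER1A lost its call without any 1 of LBT 1, LBT 2, LBT 3, TZL 2, TZL 3 and TZL 6 (highest adjusted p = 0.0772). It was lost too with floored values (-1.12, adjusted p = 0.0550), with only the 2 groups in the fit (-2.37, adjusted p = 0.0866), with Golden Retrievers only (-2.21, adjusted p = 0.0849) and without the filter on low values (-2.37, adjusted p = 0.0501).

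Endothelial markers gave 1 call in 4 tested. ENG, endoglin, was higher (log2 difference 2.41 ± 0.64 (SE), 3.04-fold with floored values, limma adjusted p = 0.00484), with LBT 3 and LBT 4 high, LBT 1 and LBT 2 below the threshold. The call was lost without LBT 3 (1.48, adjusted p = 0.0728) and with the second probe set, which was dim (0.23, adjusted p = 0.351). PECAM1 (log2 difference -1.80 ± 0.95 (SE), 3.22-fold with floored values, limma adjusted p = 0.152) and KDR (log2 difference 1.13 ± 0.62 (SE), 1.37-fold with floored values, limma adjusted p = 0.170) did not pass the test. The endothelial markers summed to 92.7 to 328 in the LBT dogs and 92.3 to 356 (median 243) in the TZL dogs. All 8 erythroid and platelet markers with a probe set were below the threshold in all 13 dogs. Of 3 epithelial and other tissue markers tested, 0 were called, at sums of 69.4 to 2051 in the LBT dogs and 168 to 985 (median 379) in the TZL dogs. The highest of these sums came with EPCAM, an epithelial adhesion gene that thymic tissue also holds, which measured 1.86, 1.63, 10.75 and 9.47 in LBT dogs 1 to 4; it was named after its values were seen.

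Against PTCL, the other high-grade T cell group, far fewer genes were called: 51 of 7500 (0.68%), 35 higher and 16 lower in LBT, and 46 of these were also called between LBT and TZL. PTCL held 4 dogs and TZL 9, so fewer calls need not mean fewer differences. At an unadjusted p under 0.05 in limma the counts were 934 against PTCL and 3062 against TZL. The comparisons share the LBT dogs, so the values are given side by side only. The count against PTCL moved with single dogs. It was 11 without PTCL 4, 30 without LBT 2, 85 without PTCL 3, 96 without LBT 4 and 180 without PTCL 2. Leaving out together the 2 dogs of the fit whose sex probe set opposed the label gave a count of 81. It was 0 with only these 2 groups in the limma fit, where 575 genes had an unadjusted p under 0.05. Mitosis genes had a median of 3.10 against TZL and 0.14 against PTCL, and interferon response genes -3.04 and -0.73. For MHC class II genes the medians were -1.35 and -1.62, and for B cell markers -1.97 and -1.97. The median over all tested genes against PTCL was 0.05.

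The genes called against both groups, of which the 3 with the smallest adjusted p against PTCL are given here, were chosen after their values were seen. DOK4, a docking protein of tyrosine kinase receptors, measured 6.37, 6.76, 6.18 and 6.71 in LBT dogs 1 to 4, 1.95 to 3.17 (median 2.48) in TZL and 4.06, 4.20, 3.75 and 2.50 in PTCL dogs 1 to 4. LBT was above every TZL and PTCL dog (3.97 against TZL, limma adjusted p = 4.54e-13, and 2.88 against PTCL, limma adjusted p = 1.53e-07). SLC16A10, a transporter of aromatic amino acids, measured 8.53, 7.00, 7.64 and 7.32 in LBT dogs 1 to 4, 1.62 to 2.25 (median 1.78) in TZL and 1.94, 3.87, 6.73 and 2.32 in PTCL dogs 1 to 4. PTCL 3 came close to the lowest LBT dog and the other PTCL dogs were below the threshold (5.77 against TZL, limma adjusted p = 1.51e-10, and 3.91 against PTCL, limma adjusted p = 9.52e-05). VEGFD, a growth factor of lymphatic vessels, measured 6.33, 6.46, 6.84 and 6.16 in LBT dogs 1 to 4, 1.32 to 2.01 (median 1.83) in TZL and 1.93, 4.33, 5.81 and 1.56 in PTCL dogs 1 to 4. All LBT dogs were above all TZL and PTCL dogs, PTCL 3 being nearest (4.67 against TZL, limma adjusted p = 6.41e-10, and 3.04 against PTCL, limma adjusted p = 8.71e-04). Of the leading genes above, SMOC2 (8.71 against TZL, limma adjusted p = 2.12e-10, and 4.16 against PTCL, limma adjusted p = 0.0122) and KHDRBS3 (7.36 against TZL, limma adjusted p = 1.49e-08, and 3.83 against PTCL, limma adjusted p = 0.0284) were called higher than in both groups. The highest PTCL dog was above the lowest LBT dog for SMOC2 (10.57 against 10.40) and KHDRBS3 (10.83 against 8.40). Their SD in PTCL was 3.48 and 3.65, while the SE against PTCL from the pooled fit was 0.83 and 0.87. LGALS3 (-5.12 against TZL, limma adjusted p = 1.36e-07, and -3.04 against PTCL, limma adjusted p = 0.0259) and CD74 (-2.28 against TZL, limma adjusted p = 4.23e-06, and -1.62 against PTCL, limma adjusted p = 0.0321) were lower than in both. So were DLA-DQA1 (-2.23 against TZL, limma adjusted p = 5.58e-06, and -1.69 against PTCL, limma adjusted p = 0.0212) and DLA-DMB (-3.66 against TZL, limma adjusted p = 2.66e-06, and -2.57 against PTCL, limma adjusted p = 0.0284). For LGALS3 the PTCL dogs measured 8.45, 10.29, 8.70 and 11.34, and for DLA-DMB 10.33, 6.73, 8.57 and 11.07, so that PTCL 2 was within the LBT range for the latter. The lowest PTCL dog was below the highest LBT dog for CD74 (11.75 against 12.67) and DLA-DQA1 (10.07 against 10.80) as well.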

How the data were processed

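Total RNA of each primary tumour was labelled as biotinylated cRNA and hybridised to an Affymetrix canine array, per the labels' protocols. The deposited value table holds 1 intensity per probe set and array on a linear scale; GCRMA, a background correction and normalization for such arrays, is named per the submitters' processing notes, with no version given. Intensities under 1 were set to 1 and log2 was taken. Of 43035 probe sets, 111 controls were left out, 29254 had 1 gene symbol in the platform annotation, 439 several and 13231 none; only those with 1 symbol were used, which gave 15115 genes, each represented by whichever of its probe sets was brightest on average across the arrays. Genes at log2 4 or more in at least 4 dogs were kept (7500).

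A limma 3.58.1 model (R 4.3.3) with a mean for each of 6 lymphoma groups was fitted over 34 dogs, the 2 arrays of 1 DLBCL dog averaged and a group of a single dog left out; LBT was contrasted with TZL and with PTCL, with Benjamini-Hochberg adjustment over 7500 genes and p under 0.05 as a call. The extra groups lend their spread to the test. Each array carries its own case number except that pair. The SE and p-values measure the spread between dogs within groups, pooled over all 34 dogs, not that of the LBT and TZL dogs alone. For GTSF1, for example, the SE was 1.66, while the SD was 0.37 in LBT, 0.25 in TZL and 4.24 in PTCL. Against PTCL the SE of KHDRBS3 was 0.87, while its SD was 1.22 in LBT and 3.65 in PTCL. Such p-values do not measure the spread of the PTCL dogs alone. Array number, 4 against 9, limits the precision. Tested on simulated data, the fit recovered 32% of genes changed by log2 1 and 78% of those changed by log2 2 (100 each), and called 8 unchanged genes of 7500 genes in all. No other genes were changed there, whereas 30.1% were called between LBT and TZL. The adjustment is stricter when few genes differ, so these recovery shares need not hold for the data.

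Genes named are the 10 largest called differences in each direction, up to 3 members with the smallest p of each of 31 gene lists described, and 19 fixed genes. The comparison, the gene lists and the fixed genes were chosen with earlier results of these data known. Alternatives changed the filter, the floor, the normalization, the variance model, the dogs, the covariates and the probe set, 1 at a time. No probe sequences or genome were used here, and coordinates are not given. CR2, a follicular dendritic and B cell receptor on the fixed list, had no probe set paired with its symbol.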

Additional observations from a re-analysis of the deposited data

Results flagged for a closer look

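In 232 checks of 1 gene in 1 group, over the 116 named genes with a probe set, 24 showed a dog whose gap to its nearest neighbour was large against the range of its group (Dixon's criterion at 95%, for which chance flags about 1 in 20 groups, or more among genes that move together). All values are log2 intensities.

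TZL 5 stood apart from the other TZL dogs for PTPRC at 3.14 (the next dog at 8.61), MS4A1 at 2.91 (next 7.28), FCRLA at 2.38 (next 6.92), TOX at 1.19 (next 4.69) and, on the high side, TXNIP at 12.04 (next 11.45). TZL 7 was low for JUNB at 5.31 (next 8.53) and high for IFNGR1 at 10.44 (next 9.62). TZL 4 was high for GPC4 at 5.46 and TZL 3 low for GLYAT at 3.89, below the threshold as in all LBT dogs. RAG1 in TZL 1 at 2.29 and KIT in TZL 2 at 2.65 were set apart among values that were all below the threshold.

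LBT 2 was low for ICOS at 3.29 (next 7.34), KIF15 at 7.07, EZH2 at 7.74 and TOX at 8.11, and high for POLR1C at 9.21. LBT 4 was high for CST7 at 6.86 (next 3.71), BCL2A1 at 10.75, DLA-DQA1 at 10.80 and CCNE2 at 8.33. LBT 1 was high for ITGB1 at 7.82 (next 4.20) and low for PSMB8 at 8.54. LBT 3 was high for CCDC3 at 6.11 (next 2.55) and UQCRC2 at 10.87. The LBT and TZL groups kept no overlap in spite of these dogs for GPC4, CCDC3, KIF15, CCNE2, TOX, TXNIP, IFNGR1, BCL2A1, EZH2, DLA-DQA1, PSMB8, POLR1C and UQCRC2.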

How the results depend on the processing

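The counts between LBT and TZL kept within 1.5 times of 2259 under all 29 alternatives, from 1745 without LBT 1 and 1822 with Golden Retrievers only to 2475 without a filter on low values, with 1071 to 1487 genes higher and 666 to 1035 lower. The median difference over all tested genes was 0.05, and quantile normalization gave 1231 higher and 1035 lower. Of the 102 named genes that were called, 72 kept direction and call in every alternative in which they were tested, and the 30 others lost the call in at least 1. Setting values below log2 4 to 4 ended 12 of these calls, the second probe set of a gene 12, Golden Retrievers only 10, and leaving out LBT 1 ended 13, the most for any 1 dog.

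The count between LBT and PTCL, 51, was 33 with the filter at log2 6, 96 with values below log2 4 set to 4, 0 with only those 2 groups in the limma fit (575 genes at an unadjusted p under 0.05), 81 without the dogs whose sex probe set opposed the label and 82 with the arrays with a high actin 3' control as a block; leaving out each dog gave 11 to 180. The cause was not tested.

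Differences that changed sign were small: UHRF1 was -0.021 with its second probe set, RBPJ -0.034 without the arrays with a high actin 3' control and -0.093 with them as a block, CD3E 0.32 with that block and 0.15 with the actin and GAPDH 3' to 5' differences as covariates, BCL6 0.058 with array weights and -0.39 to 0.39 with 1 dog left out, and BCL2 0.11 with its second probe set. Of these only UHRF1 was called, and its second probe set was dim. KDR, not called, passed the test with Golden Retrievers only (log2 difference 1.76, limma adjusted p = 0.000605). Called counts of 1 to 5 in a gene group moved easily: without the arrays with a high actin 3' control, for example, plasma cell markers called lower were 2 and macrophage and dendritic cell markers called lower 1.

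No paired analysis was possible because the labels give case numbers of different dogs, not replicate numbers shared between the groups. Values below log2 4 carry no order, so folds against them are bounds only where every dog of the brighter group reached log2 4. With 4 LBT dogs, differences of log2 1 were often missed in the simulated data, where far fewer genes were changed than were called here.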

Other observations

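Some genes were called with every dog of 1 group below the threshold. Of the 1332 genes called higher in LBT, 200 were below log2 4 in all 9 TZL dogs, and of the 927 called lower, 165 were below log2 4 in all 4 LBT dogs. The other group was not always well above it. For IL15RA, among the 165, only 4 of 9 TZL dogs reached log2 4, and its call was lost with floored values. Differences of at least 16-fold numbered 56 higher and 36 lower on values that were not floored. With floored values some of these folds were smaller, such as 6.31 for CD8A and 8.63 for CCR9. Among the named genes the other probe sets of the same gene that passed the filter, 91 in all, had the sign of the representative probe set in 91 cases, and 74 of 83 belonging to called genes were called in the same direction.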
